A study of Mus musculus with 6 samples.

Results

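Genes of iron transport, storage and sensing were followed in livers of Pfn2-/- mice, which lack profilin 2, and of wild-type animals. The 37 genes were taken from a fixed list of names, each from the array row that the platform annotation ties to that gene alone, and all 37 had 1 such row, out of 22180 genes measured in this way. It holds carriers and reductases that bring iron into cells, the exporter ferroportin and its partner oxidase, mitochondrial iron importers, ferritin and iron chaperones, cytosolic iron sensors, the surface proteins that set hepcidin, further mRNAs with an iron-responsive element, and receptors and SMAD proteins of the bone morphogenetic protein (BMP) pathway.

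The series compared whole liver of 3 Pfn2-/- mice with that of 3 wild-type mice, all of strain C57BL/6 and described as independent biological replicas. Replicates 1, 2 and 3 were 9, 8.5 and 8 months old in either genotype, so replicate number and age go together. The labels give neither the sex of the animals nor which cells lack Pfn2 beyond the genotype. Profilin 2 binds monomeric actin and the proteins that build actin filaments, and its mRNA has been described with an iron-responsive element, which ties the gene to iron biology.

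Iron reaches liver cells mainly bound to transferrin, is reduced and carried out of endosomes, and is stored in ferritin or exported through ferroportin. Inside the cell, the iron regulatory proteins bind hairpins called iron-responsive elements when iron is scarce. Binding in the 5′ untranslated region blocks translation, and binding in the 3′ untranslated region of the transferrin receptor mRNA slows its decay, so only some of this control is visible in mRNA levels. The liver also sets iron for the whole body by secreting hepcidin, whose gene responds to BMP receptors and SMAD proteins and to transferrin sensors on hepatocytes.

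Values are log2 expression after RMA, the method that corrects background, equalises arrays and summarises the probes of a row. Array medians lay between 4.36 and 4.41 over all rows, and precision is limited by how many arrays there are. The marker list for hepatocytes had 12 of 12 genes above the median gene, with albumin at 12.93 to 12.97 in Pfn2-/- liver, against 12.98 to 13.00 in wild-type liver. The row of Pfn2 itself was dim and did not separate the genotypes, at 3.88, 3.81 and 3.93 in Pfn2-/- liver, against 4.02, 3.85 and 4.09 in wild-type liver. It averaged below the median gene, and no source used here says where its probes lie. For both reasons it cannot serve to check the genotype labels. Differences are Pfn2-/- minus wild type on the log2 scale with the standard error (SE) of a limma fit over all 22180 genes, two-sided, and adjusted p is by Benjamini-Hochberg over all of them. P-values measure the spread between animals as the labels describe them. Wild-type replicate 3 lay apart from the other wild-type arrays in several of the 37 genes, and Pfn2-/- replicates 1 and 3 had high acute-phase genes. Larger differences of the 37 genes that rest on these arrays are therefore given with and without them.

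None of the iron genes separated the genotypes past the threshold. Of the 37 genes, 0 had an adjusted p under 0.05 in the limma fit, against 0.0% of all genes, and the smallest adjusted p among them was 0.915. At an unadjusted p under 0.05 there were 3, Steap3, Heph and Smad9, where the share of all genes was 5.29%. The groups did not overlap in 3 genes, Steap3, Heph and Cdc42bpa, where the share of all genes was 9.85%. The median difference was -0.033 over the 37 genes and 0 over all genes, with 14 higher and 23 lower in Pfn2-/- liver, where the shares of all genes were 49.2% and 49.9%. None of the 37 differed by 0.5 or more, which 1.82% of all genes did.

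The arrays bounded most of these differences. The 95% confidence interval lay within a 2-fold change in either direction for 36 of the 37 genes, all but Fgl1, and for 98.0% of all genes. For 26 of the 37 it lay within a 1.5-fold change, against 81.7% of all genes. In 24 of the 37 genes the difference was smaller than its SE, as it was in 64.5% of all genes.

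**Figure D1:**
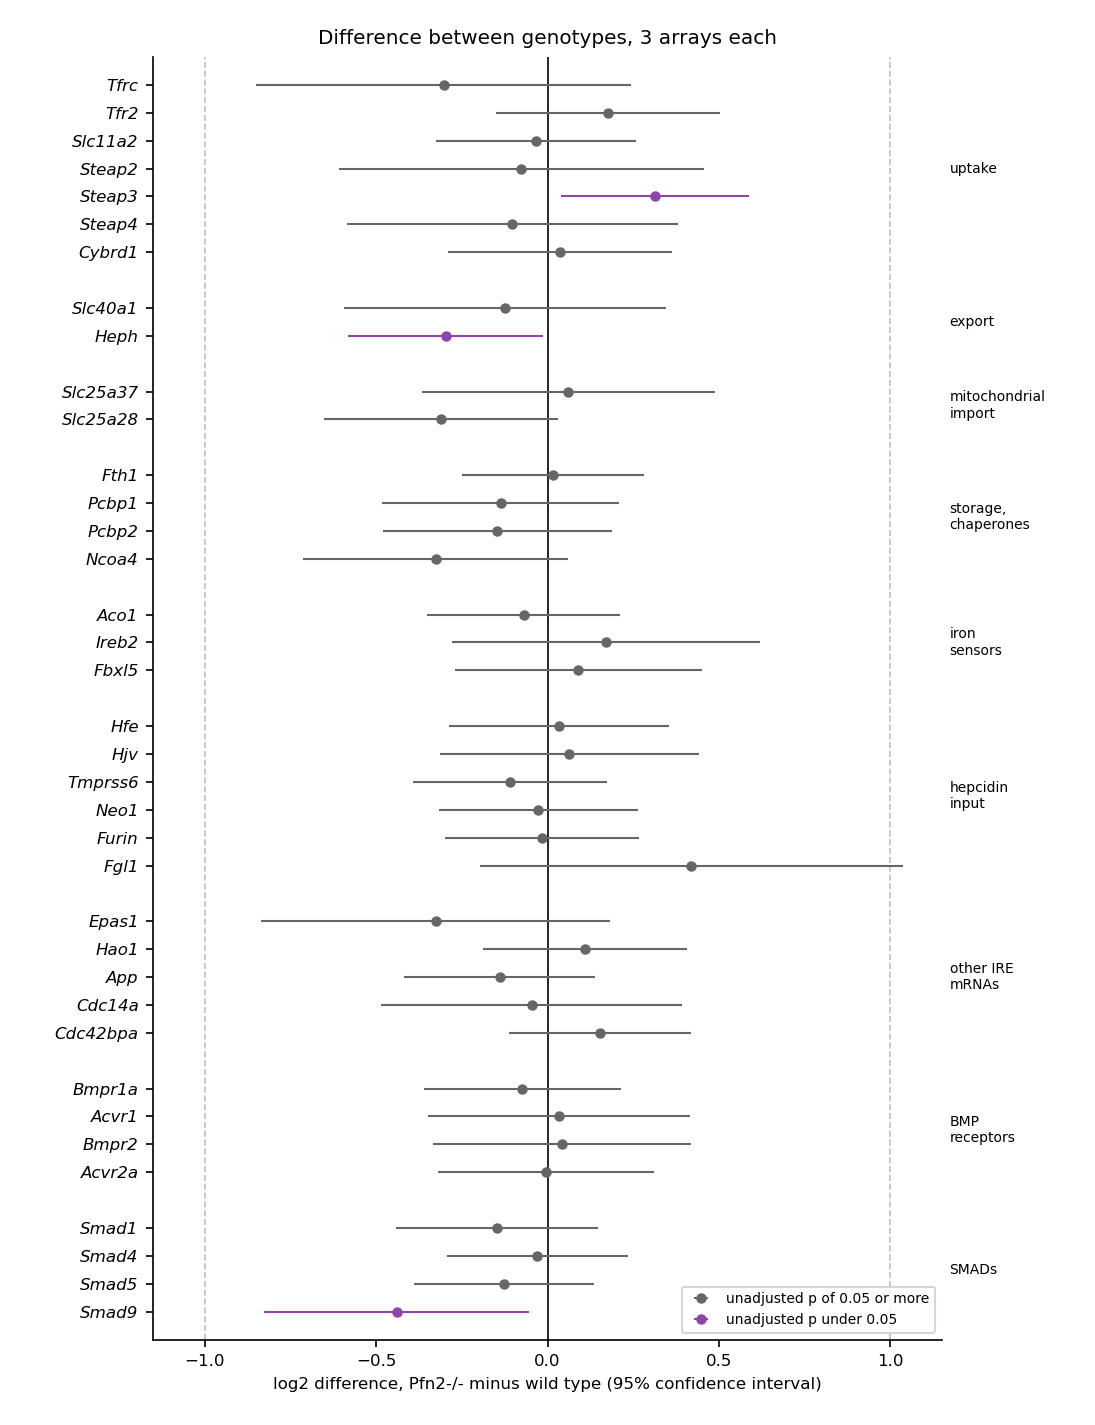
Log2 difference of each iron gene, Pfn2-/- minus wild type with 3 arrays each, with its 95% confidence interval from limma, grouped by role from uptake at the top to SMADs at the bottom; dashed lines mark a 2-fold change. Only Steap3, Heph and Smad9 have intervals that leave out 0 before adjustment, and only the interval of Fgl1 reaches past 2-fold.

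Iron uptake began with the transferrin receptors. Tfrc, which takes up transferrin-bound iron and whose mRNA is stabilised by iron regulatory proteins, lay at 5.85, 6.24 and 6.43 in Pfn2-/- liver, against 5.89, 6.75 and 6.79 in wild-type liver. The groups overlapped because wild-type replicate 1 was nearly as low as the lowest Pfn2-/- array, while the other wild-type arrays were the highest of all. The difference was -0.30 (SE 0.24), with a 95% confidence interval of -0.85 to 0.24 and an adjusted p of 0.957 by limma. Without wild-type replicate 1 it was -0.60 (SE 0.19, unadjusted p = 0.0116, adjusted p = 0.999 by limma), and without Pfn2-/- replicate 1 it was -0.14. Tfr2, the hepatocyte receptor that senses transferrin saturation for hepcidin control, lay at 9.20, 8.84 and 9.13 in Pfn2-/- liver, against 9.03, 8.69 and 8.92 in wild-type liver. Its groups overlapped, with a difference of 0.18 (SE 0.15).

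Ferric iron released in endosomes is reduced by the STEAP family and leaves through Slc11a2, also called DMT1. Steap3, the endosomal ferrireductase known from red cell precursors, lay at 5.67, 5.52 and 5.46 in Pfn2-/- liver, against 5.22, 5.15 and 5.34 in wild-type liver, so that all Pfn2-/- arrays were above all wild-type arrays. The gap between the highest wild-type and the lowest Pfn2-/- array was narrow, and the difference was 0.31 (SE 0.12), a 1.24-fold higher level (95% confidence interval 0.039 to 0.59, unadjusted p = 0.0293, adjusted p = 0.915 by limma). It was between 0.25 and 0.36 when single arrays were left out, so every such fit kept its sign. Slc11a2 lay at 6.35, 6.13 and 6.28 in Pfn2-/- liver, against 6.12, 6.32 and 6.42 in wild-type liver, with wide overlap and a difference of -0.033 (SE 0.13). The row does not tell its transcripts with and without an iron-responsive element apart, as far as the annotation goes.

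Steap4 and Steap2 varied between animals more than between genotypes. Steap4, a metalloreductase that inflammatory signals induce in other settings, lay at 9.33, 9.16 and 9.57 in Pfn2-/- liver, against 9.73, 9.71 and 8.93 in wild-type liver. Wild-type replicate 3 was the lowest array and the other wild-type arrays were the highest, so the difference of -0.10 (SE 0.22) became -0.37 without that array (SE 0.16, unadjusted p = 0.0442, adjusted p = 0.698 by limma) and 0.033 without wild-type replicate 1. Steap2 lay at 5.24, 6.03 and 5.82 in Pfn2-/- liver, against 5.81, 6.15 and 5.36 in wild-type liver, and either genotype held 1 low array, with a difference of -0.077 (SE 0.24). Cybrd1, a membrane cytochrome known as the ferric reductase of the duodenum, was below the median gene in brightness at 4.22, 4.36 and 4.63 in Pfn2-/- liver, against 4.37, 4.21 and 4.52 in wild-type liver, and differed by 0.037 (SE 0.15).

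**Figure D2:**
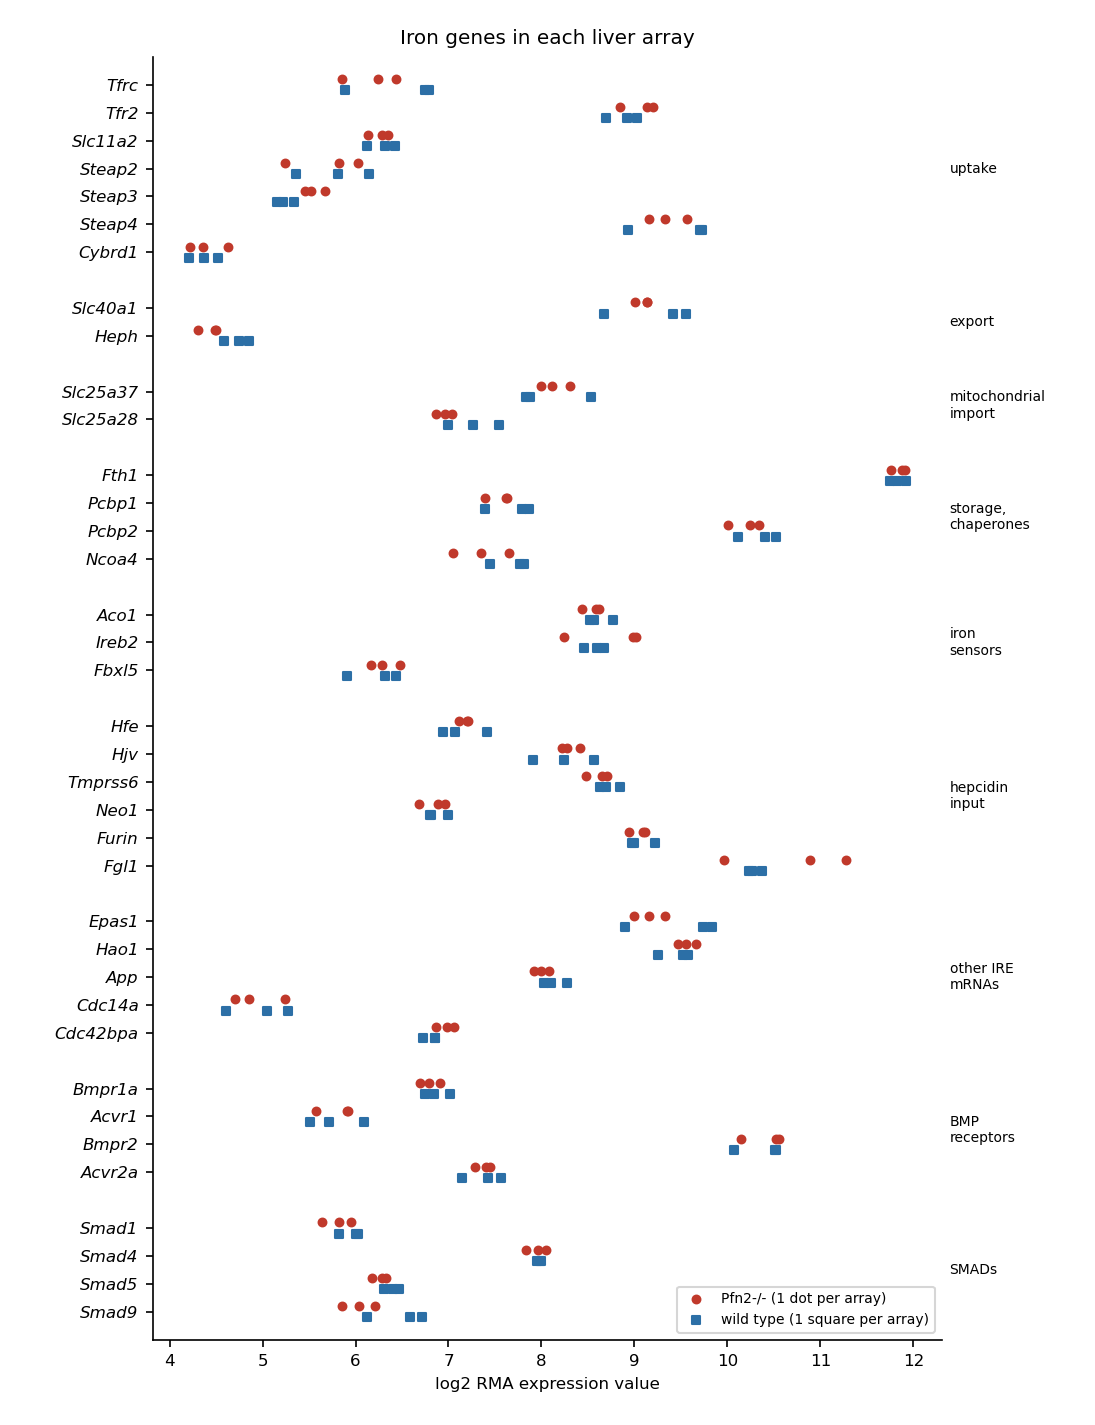
Log2 RMA value of each iron gene in every array, grouped by role, with Pfn2-/- arrays as dots above and wild-type arrays as squares below. The genotypes overlap in all genes but Steap3, Heph and Cdc42bpa, and values of different genes are not comparable as amounts because their probes differ.

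Export was represented by ferroportin and hephaestin. Slc40a1, which encodes ferroportin, the cell's iron exporter and the target of hepcidin, lay at 9.01, 9.13 and 9.13 in Pfn2-/- liver, against 9.56, 9.41 and 8.67 in wild-type liver. The Pfn2-/- arrays were close together, whereas wild-type replicate 3 lay below all of them and the other wild-type arrays above all of them. The difference was -0.12 (SE 0.21) in all arrays and -0.40 without wild-type replicate 3 (SE 0.14, 95% confidence interval -0.70 to -0.085, unadjusted p = 0.018, adjusted p = 0.583 by limma), and it was 0.05 without wild-type replicate 1.

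Macrophages are rich in ferroportin, so their markers are given beside it. Of 14 listed markers of Kupffer cells and other macrophages, 13 were lower in Pfn2-/- liver on average, where the share of all genes was 49.9%. At an unadjusted p under 0.05 by limma there was 1, Cd163, where the share of all genes was 5.29%. The log2 of the summed values of the 14 markers was 11.07 to 11.11 in Pfn2-/- arrays and 10.92 to 11.60 in wild-type arrays. It was highest in wild-type replicate 2 and lowest in wild-type replicate 3, and no marker row was at 0. Their part in the values of Slc40a1 was not tested. In whole tissue, fewer cells of a type and less RNA per cell cannot be told apart.

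Heph encodes hephaestin, the membrane ferroxidase that works with ferroportin in the gut and other tissues. It lay at 4.31, 4.49 and 4.50 in Pfn2-/- liver, against 4.59, 4.75 and 4.85 in wild-type liver, so that all Pfn2-/- arrays were below all wild-type arrays. The row was dim, between the lower quartile and the median of all genes, and RMA compresses differences of dim rows. The difference was -0.30 (SE 0.13), or 1.23-fold higher in wild type (95% confidence interval -0.58 to -0.013, unadjusted p = 0.0423, adjusted p = 0.92 by limma), and it lay between -0.37 and -0.23 with single arrays left out.

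Both mitochondrial importers were measured well above the median gene. Slc25a28, or mitoferrin 2, the form of non-erythroid cells, lay at 7.04, 6.87 and 6.96 in Pfn2-/- liver, against 7.26, 7.00 and 7.54 in wild-type liver. The Pfn2-/- arrays sat at the low end and overlapped with wild-type replicate 2 alone, with a difference of -0.31 (SE 0.15) (95% confidence interval -0.65 to 0.031, unadjusted p = 0.07, adjusted p = 0.935 by limma). It was -0.17 (SE 0.15) without wild-type replicate 3, the highest array, and -0.44 (SE 0.15) without wild-type replicate 2. Slc25a37, or mitoferrin 1, the form that red cell precursors rely on, lay at 8.11, 8.00 and 8.31 in Pfn2-/- liver, against 7.88, 7.83 and 8.53 in wild-type liver, where wild-type replicate 3 was the highest array. It differed by 0.06 (SE 0.19), and the sign turned without Pfn2-/- replicate 3 and without either of wild-type replicates 1 and 2.

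Ferritin mRNA was closely alike in the 6 livers. Fth1, the ferritin heavy chain that oxidises and stores iron, lay at 11.88, 11.76 and 11.91 in Pfn2-/- liver, against 11.83, 11.75 and 11.92 in wild-type liver. The ranges of the genotypes nearly coincided, and the 95% confidence interval of the difference, 0.017 (SE 0.12), spanned 0.842-fold to 1.22-fold. Ferritin synthesis is controlled largely in translation, which arrays do not measure, and processed copies of Fth1 in the genome could hybridise to the same probes.

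Among the proteins that fill and empty ferritin, Ncoa4 had the largest difference. Ncoa4, the cargo receptor that delivers ferritin to autophagy, lay at 7.05, 7.35 and 7.65 in Pfn2-/- liver, against 7.81, 7.77 and 7.45 in wild-type liver. Pfn2-/- replicates 1 and 2 were below all wild-type arrays and Pfn2-/- replicate 3 was inside their range, with a difference of -0.33 (SE 0.17) (95% confidence interval -0.71 to 0.06, unadjusted p = 0.089, adjusted p = 0.943 by limma). It was -0.48 without Pfn2-/- replicate 3, -0.44 without wild-type replicate 3 and -0.18 without Pfn2-/- replicate 1, and its sign held in all 6 such fits. The chaperones Pcbp1 and Pcbp2 bind RNA and hand ferrous iron to ferritin. Pcbp1 lay at 7.63, 7.39 and 7.62 in Pfn2-/- liver, against 7.87, 7.39 and 7.79 in wild-type liver, and Pcbp2 at 10.01, 10.34 and 10.24 in Pfn2-/- liver, against 10.52, 10.40 and 10.11 in wild-type liver. Both overlapped between the genotypes, with differences of -0.14 (SE 0.15) and -0.15 (SE 0.15).

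The genotypes overlapped in the genes of all 3 cytosolic sensors, and did not overlap in 9.85% of all genes. Aco1 is the cytosolic aconitase that turns into iron regulatory protein 1 when it loses its iron-sulfur cluster, and it lay at 8.62, 8.44 and 8.59 in Pfn2-/- liver, against 8.52, 8.57 and 8.77 in wild-type liver. Its values were close in all arrays, with a difference of -0.07 (SE 0.13) and a 95% confidence interval of -0.35 to 0.21. Ireb2, iron regulatory protein 2, lay at 9.02, 8.98 and 8.24 in Pfn2-/- liver, against 8.67, 8.60 and 8.46 in wild-type liver. Pfn2-/- replicates 1 and 2 were above all wild-type arrays and Pfn2-/- replicate 3 was below all of them. The difference was 0.17 (SE 0.20) in all arrays and 0.42 without Pfn2-/- replicate 3 (SE 0.14, unadjusted p = 0.0126, adjusted p = 0.777 by limma). It was 0.033 without Pfn2-/- replicate 1, 0.053 without Pfn2-/- replicate 2 and 0.11 without wild-type replicate 3. In the heat shock gene Hspa1b, Pfn2-/- replicate 3 lay at 8.65, against 5.51 to 6.38 in the other 5 arrays. In Hspd1, another of the listed heat shock genes, it lay at 8.90, against 8.78 to 8.89 in the others. That array alone was the highest in 7 of the 10 measured heat shock genes, and not in Hspb1, Hspa8 and Hspe1. The share of all genes was not computed for this count. A link of heat shock genes to Ireb2 was not tested. Fbxl5, the iron-binding ligase subunit that marks Ireb2 for degradation, lay at 6.17, 6.48 and 6.28 in Pfn2-/- liver, against 5.91, 6.32 and 6.43 in wild-type liver and differed by 0.09 (SE 0.16).

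Further mRNAs with a described iron-responsive element were examined beside Tfrc, Slc11a2, Fth1 and Slc40a1. Of these 9 mRNAs, 0 had an unadjusted p under 0.05 by limma, where the share of all genes was 5.29%. In Pfn2-/- liver 3 were higher and 6 lower, where the shares of all genes were 49.2% and 49.9%. The median difference of the 9 was -0.047, against 0 over all genes. Epas1, the hypoxia factor HIF-2 alpha whose translation iron regulatory protein 1 restrains, lay at 9.00, 9.33 and 9.16 in Pfn2-/- liver, against 9.83, 9.74 and 8.90 in wild-type liver. Wild-type replicate 3 was the lowest array and the other wild-type arrays were above all Pfn2-/- arrays. The difference was -0.33 (SE 0.23) in all arrays (95% confidence interval -0.84 to 0.18) and -0.62 without wild-type replicate 3 (95% confidence interval -0.96 to -0.28, unadjusted p = 0.00237, adjusted p = 0.371 by limma). It was smaller without wild-type replicate 1, at -0.16 (SE 0.24), and without wild-type replicate 2, at -0.20 (SE 0.25).

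Hao1, a peroxisomal hydroxyacid oxidase of hepatocytes, lay at 9.66, 9.55 and 9.47 in Pfn2-/- liver, against 9.58, 9.25 and 9.52 in wild-type liver and differed by 0.11 (SE 0.13). The amyloid precursor gene App lay at 7.92, 8.08 and 7.99 in Pfn2-/- liver, against 8.03, 8.28 and 8.10 in wild-type liver and differed by -0.14 (SE 0.12). Both overlapped between the genotypes. Cdc42bpa, a kinase that acts on the actomyosin cytoskeleton downstream of Cdc42, lay at 6.87, 7.06 and 6.98 in Pfn2-/- liver, against 6.86, 6.86 and 6.73 in wild-type liver. Its groups did not overlap, but by a margin equal to the rounding step of the deposited values, and the difference of 0.15 (SE 0.12) had an unadjusted p of 0.228 and an adjusted p of 0.956 by limma. The cell cycle phosphatase gene Cdc14a lay at 4.70, 5.24 and 4.85 in Pfn2-/- liver, against 5.05, 5.27 and 4.61 in wild-type liver and differed by -0.047 (SE 0.20).

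None of the 6 genes whose proteins set hepcidin passed the test, where the share of all genes was 0.0%. The genotypes overlapped in each of the 6, and did not overlap in 9.85% of all genes. Hfe, the protein mutated in hereditary haemochromatosis, lay at 7.21, 7.11 and 7.20 in Pfn2-/- liver, against 7.07, 7.41 and 6.94 in wild-type liver. Hjv, hemojuvelin, the BMP co-receptor, lay at 8.41, 8.28 and 8.22 in Pfn2-/- liver, against 8.24, 7.91 and 8.57 in wild-type liver. Wild-type arrays were the more spread of the groups in both, and the differences were 0.033 (SE 0.14) and 0.063 (SE 0.17).

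Tmprss6, the hepatocyte protease matriptase-2 that cleaves hemojuvelin, lay at 8.71, 8.48 and 8.65 in Pfn2-/- liver, against 8.63, 8.69 and 8.85 in wild-type liver, a difference of -0.11 (SE 0.13). Neo1, neogenin, a partner of hemojuvelin, lay at 6.68, 6.89 and 6.96 in Pfn2-/- liver, against 6.80, 6.81 and 7.00 in wild-type liver. Furin, a proprotein convertase that processes hemojuvelin and prohepcidin, lay at 9.09, 8.94 and 9.11 in Pfn2-/- liver, against 9.22, 8.97 and 9.00 in wild-type liver. The ranges of the genotypes overlapped in Neo1 and Furin, with differences of -0.027 (SE 0.13) and -0.017 (SE 0.13).

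Fgl1, a hepatokine of the fibrinogen family that restrains BMP signals to hepcidin in mice, had the widest interval of the 37 genes. It lay at 10.89, 9.96 and 11.28 in Pfn2-/- liver, against 10.23, 10.37 and 10.27 in wild-type liver. Pfn2-/- replicates 1 and 3 were above all wild-type arrays and Pfn2-/- replicate 2 was below all of them, while the wild-type arrays were close together. The difference was 0.42 (SE 0.28), with a 95% confidence interval of -0.20 to 1.04 and an adjusted p of 0.954 by limma. It was 0.80 without Pfn2-/- replicate 2 (unadjusted p = 0.000698, adjusted p = 0.405 by limma), 0.33 without Pfn2-/- replicate 1 and 0.14 without Pfn2-/- replicate 3.

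Fgl1 is known as an acute-phase gene, and several acute-phase markers had its order in the Pfn2-/- arrays. The serum amyloid gene Saa2 lay at 10.83, 7.31 and 12.22 in Pfn2-/- liver, against 7.80, 7.11 and 6.76 in wild-type liver, and the orosomucoid gene Orm2 at 9.58, 6.44 and 10.09 in Pfn2-/- liver, against 6.75, 7.07 and 7.42 in wild-type liver. Pfn2-/- replicate 3 was highest and Pfn2-/- replicate 2 lowest of the Pfn2-/- arrays in Fgl1, Saa2, Orm2 and Lcn2. That order held in 15 of the 20 measured acute-phase genes and in 18.5% of all genes, and not in Orm3, Crp, Fgb, Steap1 and Socs3. Of the 20 measured acute-phase genes, 20 had a higher mean in Pfn2-/- liver, where the share of all genes was 49.2%, and 3, Saa2, Saa3 and Lcn2, had an unadjusted p under 0.05, where it was 5.29%. The log2 of their summed values was 14.85 to 15.40 in Pfn2-/- arrays and 14.77 to 14.98 in wild-type arrays. Their part in the values of Fgl1 was not tested.

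**Figure D3:**
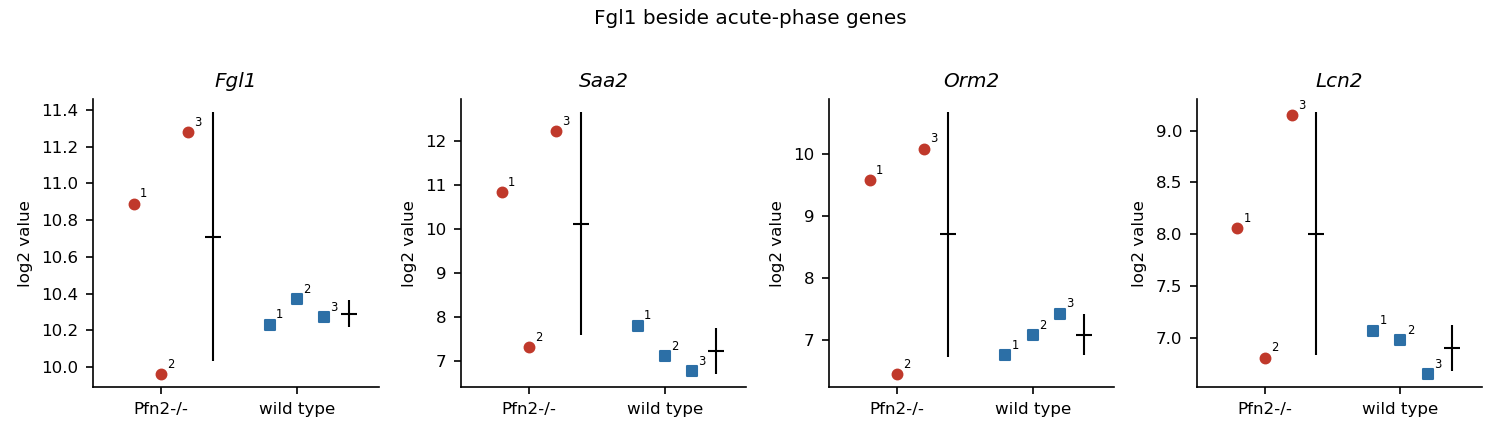
Log2 RMA values of Fgl1 and of the acute-phase genes Saa2, Orm2 and Lcn2, with 1 point per array numbered by replicate and the mean and SD of 3 arrays beside the points, Pfn2-/- left of wild type and a separate axis range per gene. In each gene Pfn2-/- replicates 1 and 3 are above all wild-type arrays, and Pfn2-/- replicate 2 is not.

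None of the 4 genes for receptors of BMP ligands passed the test, where the share of all genes was 0.0%. Bmpr1a, the type I receptor known as ALK3, lay at 6.69, 6.91 and 6.79 in Pfn2-/- liver, against 7.02, 6.84 and 6.75 in wild-type liver, and Acvr1, known as ALK2, at 5.92, 5.91 and 5.58 in Pfn2-/- liver, against 5.51, 6.09 and 5.71 in wild-type liver. Both type I receptors mediate BMP signals to hepcidin in mouse hepatocytes, and their differences were -0.073 (SE 0.13) and 0.033 (SE 0.17). The type II receptor Bmpr2 lay at 10.15, 10.56 and 10.52 in Pfn2-/- liver, against 10.51, 10.52 and 10.07 in wild-type liver, and Acvr2a at 7.28, 7.40 and 7.45 in Pfn2-/- liver, against 7.57, 7.43 and 7.14 in wild-type liver. In Bmpr2 either genotype held 1 low array, and the differences of these type II receptors were 0.043 (SE 0.17) and -0.0033 (SE 0.14). A further row that names Bmpr2 together with another gene was not used here.

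All 4 SMAD genes averaged lower in Pfn2-/- liver, where the share of all genes was 49.9%. The direction turned for Smad4 without Pfn2-/- replicate 1. It held for the 4 genes under each scaling tried, which reuses the same arrays. Smad9, or SMAD8, a receptor-regulated SMAD and itself a BMP target, lay at 6.04, 5.85 and 6.21 in Pfn2-/- liver, against 6.71, 6.59 and 6.12 in wild-type liver. Wild-type replicate 3 fell between the Pfn2-/- values and the other wild-type arrays were higher than every Pfn2-/- array. The difference was -0.44 (SE 0.17), 1.36-fold higher in wild type (95% confidence interval -0.83 to -0.053, unadjusted p = 0.0299, adjusted p = 0.915 by limma). It was -0.62 without wild-type replicate 3 (unadjusted p = 0.00295, adjusted p = 0.374 by limma), and with single arrays left out it ranged from -0.62 to -0.32.

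The receptor-regulated Smad1 lay at 5.95, 5.82 and 5.64 in Pfn2-/- liver, against 6.00, 5.82 and 6.03 in wild-type liver, and its relative Smad5 at 6.18, 6.29 and 6.33 in Pfn2-/- liver, against 6.31, 6.40 and 6.47 in wild-type liver. Their groups overlapped, with differences of -0.15 (SE 0.13) and -0.13 (SE 0.12). Smad4, the shared partner of all receptor-regulated SMADs, lay at 7.83, 7.96 and 8.05 in Pfn2-/- liver, against 7.98, 7.95 and 8.00 in wild-type liver and differed by -0.03 (SE 0.12).

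Single arrays carried much of the spread of these genes. A gene was counted for an array when that array lay more than 0.3 from the nearest other array of its genotype and farther than the remaining pair lay from each other. Wild-type replicate 3 was such an array in 9 of the 37 genes, against 12.1% of all genes. It was low in Steap2, Steap4, Slc40a1, Ncoa4, Epas1, Cdc14a, Bmpr2 and Smad9 and high in Slc25a37. Each of the other 5 arrays stood apart in 2 or 3 of the 37, against 6.37% to 11.9% of all genes. Without wild-type replicate 3, 6 of the 37 had an unadjusted p under 0.05, Epas1, Smad9, Slc40a1, Steap3, Ncoa4 and Steap4, where the share of all genes was 7.03%, and 0 of the 37 passed the adjusted threshold by limma. At the unadjusted threshold there were 5 of the 37 without Pfn2-/- replicate 3, where the share of all genes was 5.84%, and 0 without Pfn2-/- replicate 1, where it was 4.37%.

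**Figure D4:**
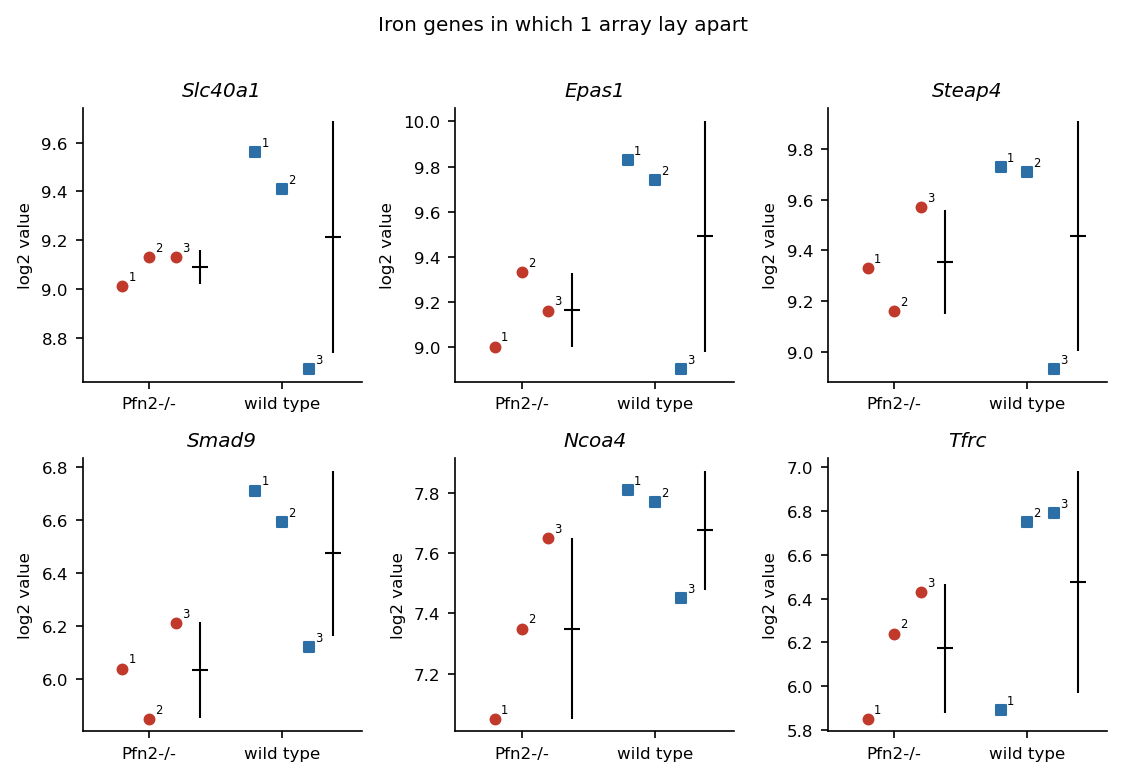
Log2 RMA values of 6 iron genes in which 1 array lay apart, with 1 point per array numbered by replicate and the mean and SD of 3 arrays beside the points, Pfn2-/- left of wild type and a separate axis range per gene. Wild-type replicate 3 is the lowest wild-type array in Slc40a1, Epas1, Steap4, Smad9 and Ncoa4, and wild-type replicate 1 is the lowest in Tfrc.

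**Figure D5:**
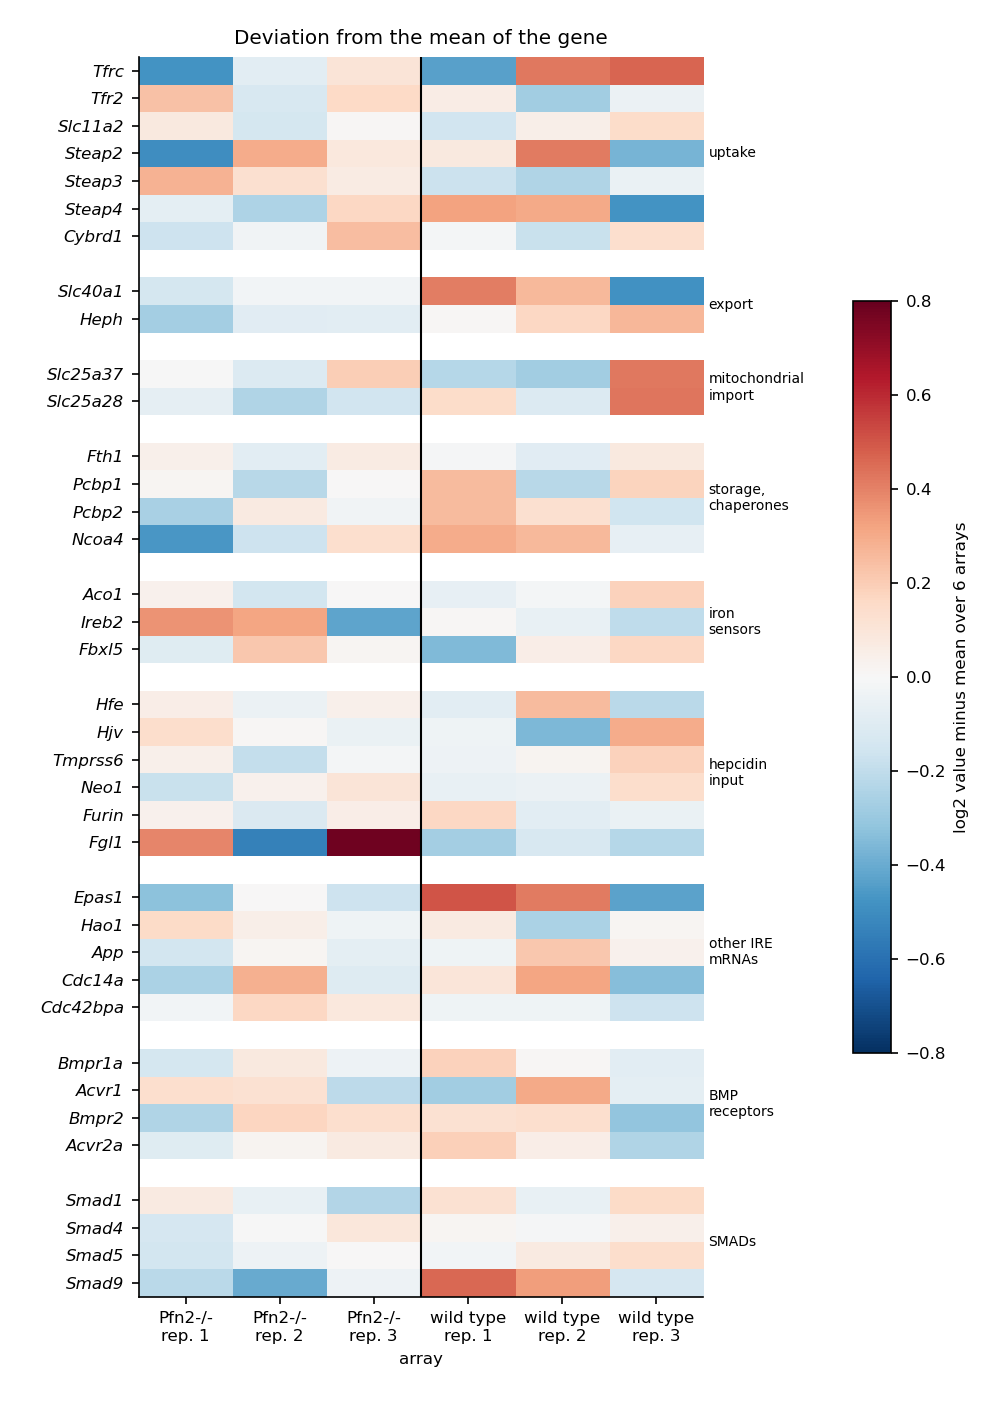
Log2 value of each iron gene in each array minus its mean over the 6 arrays, grouped by role, with red above and blue below the mean and Pfn2-/- arrays left of wild-type arrays. Colours follow single arrays, such as wild-type replicate 3 in Slc40a1 and Epas1 and Pfn2-/- replicate 3 in Fgl1, more than the line between the genotypes.

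The rest of the iron pathway was read from a list of 54 measured genes of hepcidin control, heme and iron-sulfur cluster synthesis and iron carriers, of which 0 passed the adjusted threshold by limma. At an unadjusted p under 0.05 there were 2 higher and 4 lower in Pfn2-/- liver, where the shares of all genes were 2.67% and 2.62%. The higher genes were Id2, a BMP-responsive regulator (0.49 (SE 0.12)), and Lcn2, the siderophore-binding lipocalin of the acute phase (1.11 (SE 0.46)). The lower ones included the BMP ligand gene Bmp6 (-0.36 (SE 0.16)) and the BMP target Id1 (-0.37 (SE 0.15)). Hamp2, a relative of hepcidin (-0.72 (SE 0.28)), and the macrophage scavenger receptor gene Cd163 (-0.36 (SE 0.14)) were also lower. Hamp2 lay at 4.73, 5.02 and 4.87 in Pfn2-/- liver, against 5.77, 6.18 and 4.83 in wild-type liver. Wild-type replicate 3 thus fell among the Pfn2-/- arrays, and the adjusted p was 0.915 by limma. The genotypes overlapped in Hamp2, Bmp6, Id1 and Lcn2, but not in Id2 and Cd163. Over all 54 genes they did not overlap in 10, 3 higher and 7 lower in Pfn2-/- liver, where the share of all genes was 9.85%. Bmp6 comes from liver endothelial cells. Their 11 listed markers had a log2 summed value of 11.69 to 11.88 in Pfn2-/- arrays and 11.86 to 11.99 in wild-type arrays. Of the 11, 9 were lower in Pfn2-/- liver, where the share of all genes was 49.9%. At an unadjusted p under 0.05 by limma there was 1 of the 11, Oit3 (-0.32 (SE 0.14)), where the share of all genes was 5.29%. Lyve1 had the largest difference of these markers, -0.74 (SE 0.61), and its groups overlapped. It lay at 6.72, 8.41 and 7.74 in Pfn2-/- liver, against 9.07, 9.23 and 6.78 in wild-type liver. The part of these markers in the values of Bmp6 was not tested. The hepcidin gene Hamp lay at 12.19, 12.23 and 12.61 in Pfn2-/- liver, against 12.40, 12.58 and 12.29 in wild-type liver and differed by -0.08 (SE 0.15). Trf, Ftl1 and Alas2 share their rows with other genes and were not used here.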

How the data were processed

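Total RNA of whole liver from 3 Pfn2-/- and 3 wild-type mice was measured on Affymetrix arrays, 1 array per animal. Per the labels' protocols, RNA came from snap-frozen tissue by Trizol and was biotin-labelled with the GeneChip WT PLUS kit. The submitters' processing notes name RMA and limma, and versions and genome build were not given in the sources used here. What the authors deposited are log2 expression values, from 1.04 to 13.56, rounded to 2 decimals.

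Of 34390 rows, 23521 name exactly 1 gene in the platform annotation, 1814 name several and 9055 are not listed there. Each gene was represented by its row of highest mean across the 6 arrays, which left 22180 genes. Genotype was fitted over all of them with limma 3.58.1 in R 4.3.3 (lmFit and eBayes, no filter on dim genes), with Benjamini-Hochberg adjustment over all genes at a threshold of 0.05. The unadjusted p under 0.05 and groups that do not overlap served as descriptions. The fit was tested on simulated data.

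The 37 genes, the marker lists and the tests were chosen with earlier results of these data known. Every one of the 37 was named. Of the other iron genes, those at an unadjusted p under 0.05 were named, with Hamp, Bmp6 and Pfn2 whatever their value. Saa2, Orm2, Hspa1b, Hspd1, Hspb1, Hspa8, Hspe1 and Lyve1 were named after their values were seen. Alternatives were 3 further scalings, filters on dim genes, the mean of all rows of a gene, trended and robust eBayes, array weights, a block for replicate number, and single arrays left out. No source used here names scan or hybridisation batches.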

Additional observations from a re-analysis of the deposited data

How the results depend on the processing

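The count of iron genes past the adjusted threshold was 0 in all 17 alternatives, with a smallest adjusted p of 0.232 in any of them. Over all genes, 0 passed in the main comparison, 2 with array weights, 7 with the replicate number as a block and 0 to 6 with single arrays left out. Iron genes at an unadjusted p under 0.05 numbered 3 in the main comparison and 0 to 6 with single arrays left out, and other iron genes 6 and 1 to 8. The share of all genes was 5.29% in the main comparison and 4.02% to 7.03% with single arrays left out. When both replicates 3 were left out, an alternative added after the data were seen, 24 genes passed the adjusted threshold, 0 of them iron genes, 7 iron genes had an unadjusted p under 0.05, where the share of all genes was 8.01%, and the median difference was -0.080. Samples that share a number correlated in their deviations from the group means at -0.082, 0.15 and 0.020 across genes, so the numbers were not taken as pairs beyond the shared age, and the block changed no call of an iron gene.

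The sign of 19 of the 37 differences turned without 1 array or more, with these ranges over the 6 such fits: Slc11a2 (-0.12 to 0.033), Steap2 (-0.28 to 0.15), Steap4 (-0.37 to 0.033), Cybrd1 (-0.077 to 0.13), Slc40a1 (-0.40 to 0.05), Slc25a37 (-0.065 to 0.28), Fth1 (-0.025 to 0.062), Aco1 (-0.12 to 0.005), Fbxl5 (-0.065 to 0.20), Hfe (-0.067 to 0.17), Hjv (-0.10 to 0.23), Neo1 (-0.085 to 0.055), Furin (-0.063 to 0.062), Cdc14a (-0.23 to 0.10), Bmpr1a (-0.13 to 0.0017), Acvr1 (-0.097 to 0.19), Bmpr2 (-0.10 to 0.17), Acvr2a (-0.12 to 0.092) and Smad4 (-0.082 to 0.028). With all arrays kept, signs turned for Slc11a2 with repeated quantile normalization (0.013) and array weights (0.024), Fth1 with repeated quantile normalization (-0.032) and cyclic loess (-0.025), Neo1 with cyclic loess (0.0019), Bmpr2 with array weights (-0.064), and Acvr2a with median centring (0.0033), repeated quantile normalization (0.021) and cyclic loess (0.017). Without both replicates 3 they turned for Slc11a2 (0.020), Hfe (-0.080) and Bmpr2 (-0.16). Of 627 values of iron genes under an alternative, 48 had the sign turned, and the cause was not tested. Groups of 3 arrays, whole tissue and dim rows such as Heph and Cybrd1 limit what differences can show.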

Other observations

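Without both replicates 3, the animals of 8 months, 8.01% of all genes and 7 iron genes had a 95% confidence interval excluding 0. In 6 of them the difference was more than 1.5 times its size in all arrays: -0.415 (SE 0.15) in Slc40a1, -0.62 (SE 0.17) in Epas1, -0.475 (SE 0.15) in Steap4, -0.705 (SE 0.15) in Smad9, -0.59 (SE 0.16) in Ncoa4 and 0.365 (SE 0.15) in Ireb2. The other gene was Steap3, at 0.41 (SE 0.15). Each value rests on 2 arrays per genotype, was computed after the data were seen, and did not pass the adjusted threshold by limma. The 7 genes were picked by the same fit, which favours larger differences. Wild-type replicate 3 was the low array that stood apart in Slc40a1, Epas1, Steap4, Smad9 and Ncoa4.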
